A study of Mus musculus with 8 samples.

Results

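The older L1 subfamilies are the long interspersed elements of the L1 family that are not among the young mouse L1Md group. They were taken as every repeat entry of the deposited count table whose family field is L1 and whose name does not begin with L1Md, with upper and lower case kept apart. This gave 127 subfamilies out of 133 L1 subfamilies, 1153 repeat subfamilies and 25215 entries in all. Of the 127, 120 had enough counts to be tested, among 15287 entries tested. The 7 that did not were L1MEg2, L1M8, L1M3a, L1M3b, L1M2a1, L1M2b and HAL1_SS, with 4 to 57 counts each summed over the 8 libraries.

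L1 elements are retrotransposons that copy themselves through an RNA intermediate with a reverse transcriptase they encode, and most copies in a genome are truncated or mutated and can no longer move. In the mouse the L1Md elements are the young, still mobile branch, whereas the Lx elements amplified early in the murine lineage and the L1MA to L1ME elements date back to earlier mammals, with L1ME among the oldest. HAL1 elements are L1 relatives that kept the first open reading frame and lost the reverse transcriptase. L1 copies are held silent by DNA methylation and by histone H3 lysine 9 methylation, and the Polycomb complexes PRC2, which writes H3K27me3, and PRC1, which ubiquitinates histone H2A, form another silencing pathway.

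The RNA, selected for poly(A), came from iMEFs (immortalized mouse embryonic fibroblasts) labelled 6KO. All 4 groups shared this background, a knockout of Setdb1, Suv39h1/2, Ehmt1 and Ehmt2, which write H3K9 methylation, and of the PRC1 gene Ring1b, and no line with those genes intact was part of the data used here. The combined group carried an shRNA against Ring1a (gene symbol Ring1) and was cultured with DS3201, which inhibits the PRC2 enzymes EZH1 and EZH2, over 7 days at 1 uM. The inhibitor group carried a control shRNA with the same DS3201 treatment, the knockdown group the Ring1a shRNA without DS3201, and the control group the control shRNA without DS3201. The shRNA against Ring1a came by lentivirus, and cells were selected with blasticidin. Each group had 2 libraries, 1 in each of 2 sets named after the column prefixes 20 and 28. Nothing in the labels says that the libraries came from separate cultures, so each p-value reflects the spread among these 8 libraries and no more, and that spread may be technical.

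Total counts per library ran from 12738585 to 23688253, and the older L1 subfamilies took 93966 to 156314 of them. A floor of 3 counts stood for 0.127 to 0.236 CPM, a count divided by its library's scaled depth. Ring1 (chr17, 34020792 to 34024680, minus strand, GRCm38) was at 3.52 and 2.04 CPM in the combined group and 4.51 and 1.41 CPM in the knockdown group in sets 20 and 28, against 20.4 and 7.51 CPM in the inhibitor libraries and 20.2 and 9.73 CPM in the control libraries. The Ring1a shRNA libraries were below the control shRNA libraries within each set. All 6 genes labelled as knocked out kept counts, at 26.4 to 89.0 CPM for Ring1b (Rnf2), 4.33 to 13.1 for Setdb1, 54.2 to 90.0 for Suv39h1, 12.2 to 21.3 for Suv39h2, 35.7 to 51.0 for Ehmt1 and 98.9 to 217 for Ehmt2, which may lie outside the deleted parts and so check nothing. The 8 fibroblast markers summed to 12171 to 14681 CPM in the 4 libraries with DS3201, against 18116 to 20784 CPM in the 4 without it, and Thy1 lay between 0 and 0.428 CPM. Markers of other cell types summed to 39.9 to 137 CPM, of which Map2 reached 91.8 and Tubb3 51.4 CPM.

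The inhibitor library of set 28 stood apart from the other 7. It had the lowest total count, 653 CPM of the nuclear RNA Malat1 where the others had 179 to 375, 24.6 CPM of Kcnq1ot1 where the others had 4.23 to 8.59, and 764 CPM of Gapdh where the others had 1246 to 1515. Older L1 subfamilies took 1.23% of its counts, against 0.612 to 0.702% elsewhere. Malat1, Kcnq1ot1 and Gapdh belong to a list of 6 genes chosen for this check after their values were seen. Of the rest, Neat1 was at 124 CPM, below the 145 CPM of the combined library of set 28. Actb was at 3395 CPM, where the others had 3203 to 4228, and Rn45s at 495 CPM, where the others had 672 to 4975. The part of these 6 genes, and that of this library's depth, in the results was not tested. It is called the outlying inhibitor library from here on, and the counts and medians of the comparisons that contain it are given with and without it.

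The older L1 entries were unequal in counts. The 10 subfamilies with the most counts held 45.8% of them, and 20 held 67.6%. By name class, the 21 Lx subfamilies took 41.1% of the older L1 counts and the 11 named L1_M or L1VL (mouse and murine L1 outside L1Md) 35.6%. The 9 L1MA, 7 L1MB, 11 L1MC, 6 L1MD and 27 L1ME subfamilies took 2.88, 3.50, 3.53, 1.39 and 3.58%, the 25 other L1M subfamilies 5.94%, the 6 HAL1 1.39% and L1_Rod 1.04%. The 2 L1P subfamilies and X9_LINE took 0.0255 and 0.0893%. These shares depend on how many copies a subfamily has and how long they are, so they do not rank the activity of a copy. The table gives 1 sum per subfamily, so RNA started within an L1 copy and RNA of a gene that contains one cannot be told apart.

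Summed over the 127 members and scaled by TMM, a factor that equalizes the bulk of the entries between libraries, older L1 RNA was at 6767 CPM in the combined group, 6591 in the inhibitor group, 5961 in the knockdown group and 6121 in the control group in set 20. In set 28 it was at 7038 CPM in the combined group, 13806 in the inhibitor group, 6419 in the knockdown group and 6306 in the control group. The DS3201 libraries were the higher of each pair under both shRNAs and in both sets. The ratio of the sums with over without DS3201 was 1.14 in set 20 and 1.10 in set 28 under the Ring1a shRNA, and 1.08 in set 20 and 2.19 in set 28 under the control shRNA. A change in the RNA of each cell and a change in the make-up of the cell population cannot be told apart in such bulk samples.

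**Figure D1:**
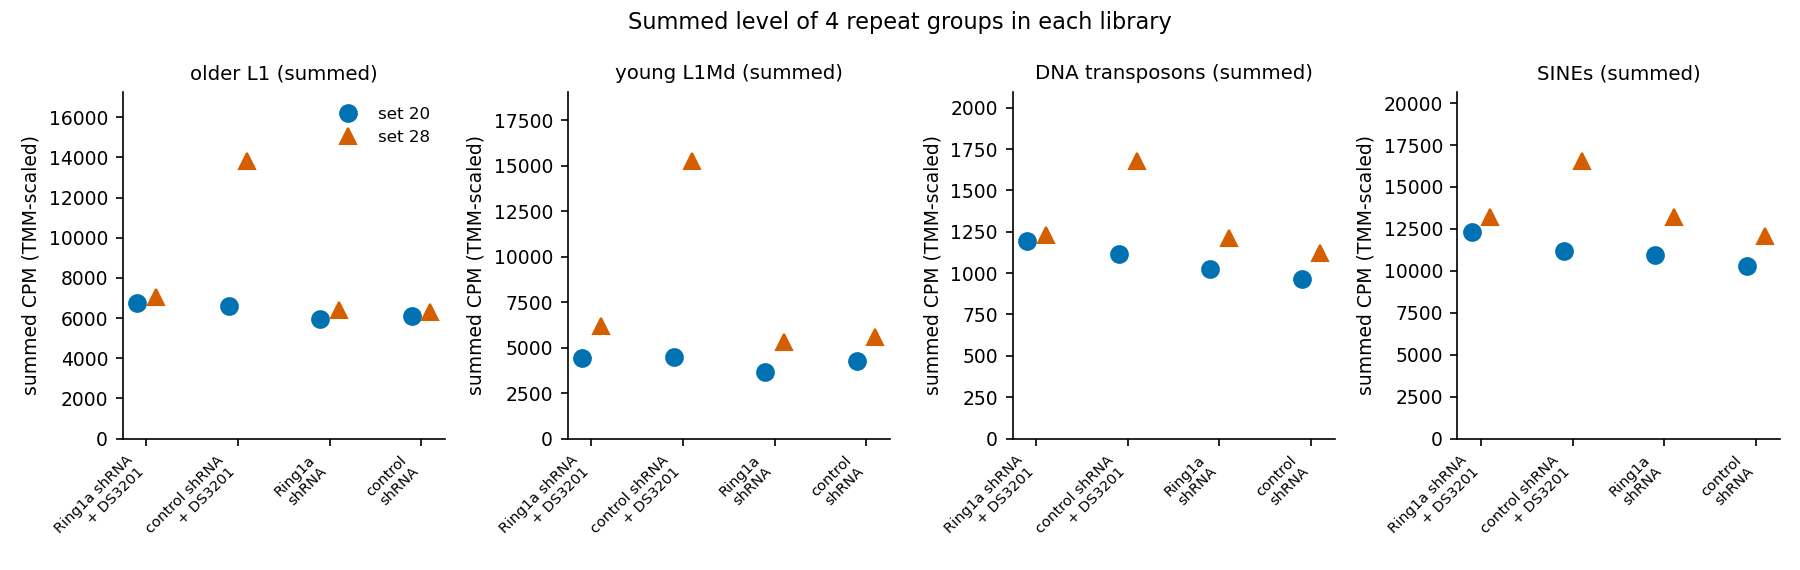
Summed TMM-scaled CPM (vertical axis, from 0) of older L1, young L1Md, DNA transposon and SINE subfamilies in the 4 groups, 1 point per library, circles for set 20 and triangles for set 28. In the older L1 panel 7 libraries lie between 5961 and 7038 CPM and the inhibitor library of set 28 lies at 13806 CPM, and that library is the highest in the other 3 panels as well.

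With the Ring1a shRNA, the comparison that does not contain the outlying library, DS3201 went with small differences, mostly upward, in older L1 RNA. In set 20, 98 of the 120 tested subfamilies were higher with DS3201, with a median log2 ratio of 0.23. In set 28, 82 of 120 were higher, with a median of 0.10. Past 1.5-fold, 13 were higher and 4 lower in set 20, where 18.8 and 7.47% of all entries were, and 8 were higher and 6 lower in set 28, where 17.6 and 7.93% of all entries were. Each of these 4 counts is a smaller share of the older L1 than the share over the whole table.

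In the fit to all 8 libraries, 0 of 120 older L1 subfamilies passed an adjusted p of 0.05 in either direction for DS3201 with the Ring1a shRNA (edgeR quasi-likelihood test, Benjamini-Hochberg over all entries), where 0.602% of all entries were called higher and 0% lower. At an unadjusted p under 0.05, 1 of 120 was higher and 0 were lower, where 1280 and 217 of all 15287 entries were. DESeq2 called 0 of 120, where it called 620 higher and 38 lower of all entries. The median log2 fold change was 0.17, against 0.01 over all entries and -0.04 in the fit with the block that left out the combined library of set 20, and 96 of 120 (80%) were positive, against 51.3% of all entries. The subfamily with the smallest p was L1M6B, a member of the mammalian-wide L1M group. It had 6.22 and 4.41 CPM in the combined libraries of sets 20 and 28, against 2.88 and 3.10 CPM in the knockdown libraries. The groups did not overlap, and the log2 fold change was 0.83 ± 0.34 (SE, n = 2 each, edgeR adjusted p = 0.49).

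L1ME3D followed, with 6.91 and 5.69 CPM in the combined group in sets 20 and 28, against 3.45 and 4.24 CPM in the knockdown group. Both combined libraries were above both knockdown libraries, with a log2 fold change of 0.71 ± 0.38 (SE, n = 2 each, edgeR adjusted p = 0.725). L1M3f came next, but it had 54 counts over all 8 libraries, and its 0.942 and 0.703 CPM in the combined group against 0.203 and 0.471 CPM in the knockdown group lay near the floor.

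A fit with the set as replicate block, so that each library is compared within its set, called 0 of 120 for DS3201 with the Ring1a shRNA while 6.05% of all entries were called higher and 0.824% lower. When the outlying inhibitor library was also left out, which is in neither group of this comparison but adds to the shared spread, 4 of 121 (3.31%) were called higher and 0 lower, beside 7.89% higher and 5.32% lower of all entries. The 4 were Lx3B, Lx3C, L1_Mur2 and Lx2, named here after their values were seen. Leaving out the inhibitor library of set 20 in its place, 4 of 121 were again called higher, beside 7.99%. Lx3B, a rodent Lx element, had 58.5 and 67.2 CPM in the combined group in sets 20 and 28, against 39.6 and 51.6 CPM in the knockdown group, with a log2 fold change of 0.46 ± 0.088 (SE, edgeR with the block, adjusted p = 0.0248). L1_Mur2, a murine L1, had 187 and 278 CPM in the combined group, against 135 and 227 CPM in the knockdown group, with a log2 fold change of 0.37 ± 0.080 in that fit (edgeR adjusted p = 0.0354). L1_Mur2 differed more between the sets than with DS3201, so that the groups overlap in CPM although the combined library is the higher within each set.

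With the control shRNA, the 2 sets differed. In set 20, 89 of 120 subfamilies were higher with DS3201, with a median log2 ratio of 0.17. In set 28, 117 of 120 were higher, with a median of 1.06, and the 3 that were lower were X9_LINE, L1M3f and L1M6. Past 1.5-fold, 11 were higher and 1 lower in set 20, where 20.5 and 5.74% of all entries were, and 106 were higher and 2 lower in set 28, where 27.6 and 20.3% of all entries were. The set 28 pair is the one that contains the outlying inhibitor library.

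In the fit to all 8 libraries, 0 of 120 passed for DS3201 with the control shRNA (edgeR), where 0.726% of all entries were called higher and 0% lower. At an unadjusted p under 0.05, 18 were higher and 0 lower, where 1576 and 325 of all 15287 entries were. The median log2 fold change was 0.71 against 0.07 over all entries. Of the 120, 115 (95.8%) were positive, against 55.6% of all entries. With the block and without the outlying inhibitor library, 81 of 121 (66.9%) were positive, against 47.2% of all entries. With the replicate block 2 of 120 (1.67%), Lx3A and L1M6B, were called higher, beside 6.62% higher and 0.706% lower of all entries. DESeq2 without a block called the same 2, where it called 731 higher and 67 lower of all 15287 entries. In both fits the higher calls were a smaller share of older L1 than of all entries.

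Lx3A had 78.9 and 105 CPM in the inhibitor group in sets 20 and 28, against 48.1 and 46.4 CPM in the control group. Both inhibitor libraries were above both control libraries, and the level in set 20, which does not involve the outlying inhibitor library, was already 0.71 higher on the log2 scale. The log2 fold change was 0.96 ± 0.21 without a block (SE, n = 2 each, edgeR adjusted p = 0.117) and 0.96 ± 0.19 with it (edgeR adjusted p = 0.0318). With the block and without the outlying inhibitor library, so that the set 20 one was alone in its group and its spread was taken from the other groups, Lx3A was the 1 of 121 called, at 0.62 ± 0.12 (edgeR adjusted p = 0.0410), where 4.17% of all entries were called higher and 1.63% lower, and the median log2 fold change of older L1 was 0.11 against -0.03 over all entries. When the inhibitor library of set 20 was the one left out, so that the outlying one was the lone inhibitor library and was assumed to vary like the other groups, 88 of 121 were called higher and 0 lower with the block, beside 19.8% higher and 17% lower of all entries.

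L1M6B had 8.78 and 8.92 CPM in the inhibitor group in sets 20 and 28, against 3.28 and 3.83 CPM in the control group. Its log2 ratios, 1.39 in set 20 and 1.20 in set 28, were close in the 2 sets. The log2 fold change was 1.32 ± 0.34 without a block (SE, n = 2 each, edgeR adjusted p = 0.158) and 1.32 ± 0.30 with it (edgeR adjusted p = 0.0460). L1M6B was not called with the block once the outlying inhibitor library was left out, at 1.21 ± 0.35 (edgeR adjusted p = 0.0965).

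**Figure D2:**
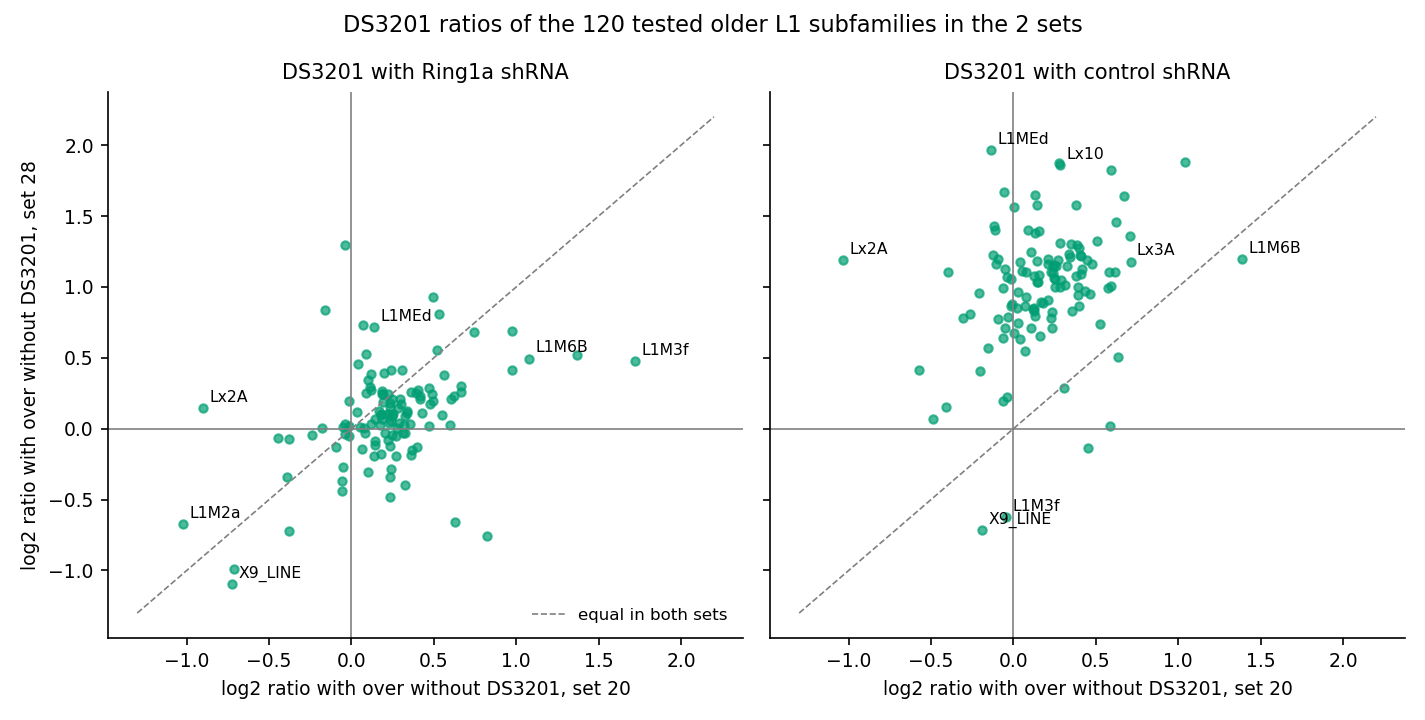
Log2 CPM ratio with over without DS3201 in set 28 (vertical axis) against set 20 (horizontal axis) for the 120 tested older L1 subfamilies, under the Ring1a shRNA (left) and the control shRNA (right); the dashed line marks equal ratios. Under the control shRNA nearly all points lie above the line, the median being 1.06 in set 28 but 0.17 in set 20, while L1M6B lies at 1.20 and 1.39.

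Over the 120 members the ratios of the 2 sets were weakly alike. Pearson's r was 0.41 and Spearman's rho 0.35 with the Ring1a shRNA, and 0.29 and 0.30 with the control shRNA. These describe 120 subfamilies of the same libraries, which share reads of related sequence, and are not a test.

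With both shRNAs pooled, DS3201 gave a median log2 fold change of 0.44 in older L1, against 0.04 over all entries, and 112 of 120 (93.3%) were positive, against 53.5% of all entries. In the fit without a block 0 of 120 were called (edgeR), where 5.24% of all entries were called higher and 0.216% lower. Unadjusted p was under 0.05 for 16 higher and 0 lower members. Of all 15287 entries, 2028 were higher and 678 lower at that level, so the higher share was near equal. DESeq2 called 2 of 120, where it called 1343 higher and 263 lower of all entries. With the replicate block 5 of 120 (4.17%) were called higher and 0 lower, beside 12.9% higher and 4.16% lower of all entries. Called members were therefore fewer, as a share, than over the whole table, while positive values were more frequent. Over all 894 tested repeats, older L1 included, 800 were positive in the fit without a block, with a median of 0.38. The fibroblast markers moved with the same contrast: with the block 5 of the 7 tested were called lower and 0 higher, with a median log2 fold change of -0.70, and without the outlying inhibitor library 5 of 7 were again lower, with a median of -0.64. The 5 in the fit to all libraries were Col1a1, Col1a2, Col3a1, Pdgfrb and S100a4, and their part in the older L1 values was not tested.

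The 5 members called higher with the block were L1M6B, L1ME4c, Lx3C, Lx3A and Lx3B. L1M6B had the largest log2 fold change of the 5, 1.07 ± 0.21 (SE, n = 4 each, edgeR with the block, adjusted p = 0.0155). L1ME4c, of the old L1ME group, had 5.78 and 7.22 CPM in the combined group and 5.04 and 10.3 CPM in the inhibitor group in sets 20 and 28, against 2.88 and 4.44 CPM in the knockdown group and 3.23 and 3.69 CPM in the control group. All 4 DS3201 libraries of L1ME4c were above the 4 others, with a log2 fold change of 0.96 ± 0.22 (edgeR with the block, adjusted p = 0.0265).

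The other 3 are rodent Lx3 elements, and a further Lx3 entry, Lx3_Mus, was not called. Lx3A was at 71.9 and 59.2 CPM in the combined group and 78.9 and 105 CPM in the inhibitor group, against 51.2 and 50.01 CPM in the knockdown group and 48.1 and 46.4 CPM in the control group. Lx3B was at 58.5 and 67.2 CPM in the combined group and 55.9 and 103 CPM in the inhibitor group, against 39.6 and 51.6 CPM in the knockdown group and 42.5 and 51.3 CPM in the control group. In Lx3A and in Lx3B, the lowest DS3201 library was above the highest library without it.

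Lx3C was at 53.4 and 60.8 CPM in the combined group and 50.2 and 118 CPM in the inhibitor group, against 33.7 and 49.3 CPM in the knockdown group and 38.4 and 48.1 CPM in the control group. Its groups were apart by a narrow margin, 50.2 CPM as the lowest DS3201 library and 49.3 CPM as the highest other. The log2 fold changes with the block were 0.67 ± 0.14 for Lx3A (SE, edgeR adjusted p = 0.0173), 0.60 ± 0.14 for Lx3B (adjusted p = 0.0288) and 0.69 ± 0.18 for Lx3C (adjusted p = 0.0425). Lx3_Mus, with 28829 counts the largest Lx3 entry, was higher with DS3201 within each set but overlapped. Its lowest DS3201 library, the combined one of set 28, had 186 CPM, and the control library of set 20 had 213 CPM. Outside the outlying inhibitor library its log2 ratios were 0.19 and 0.24 with the Ring1a shRNA and 0.05 with the control shRNA.

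**Figure D3:**
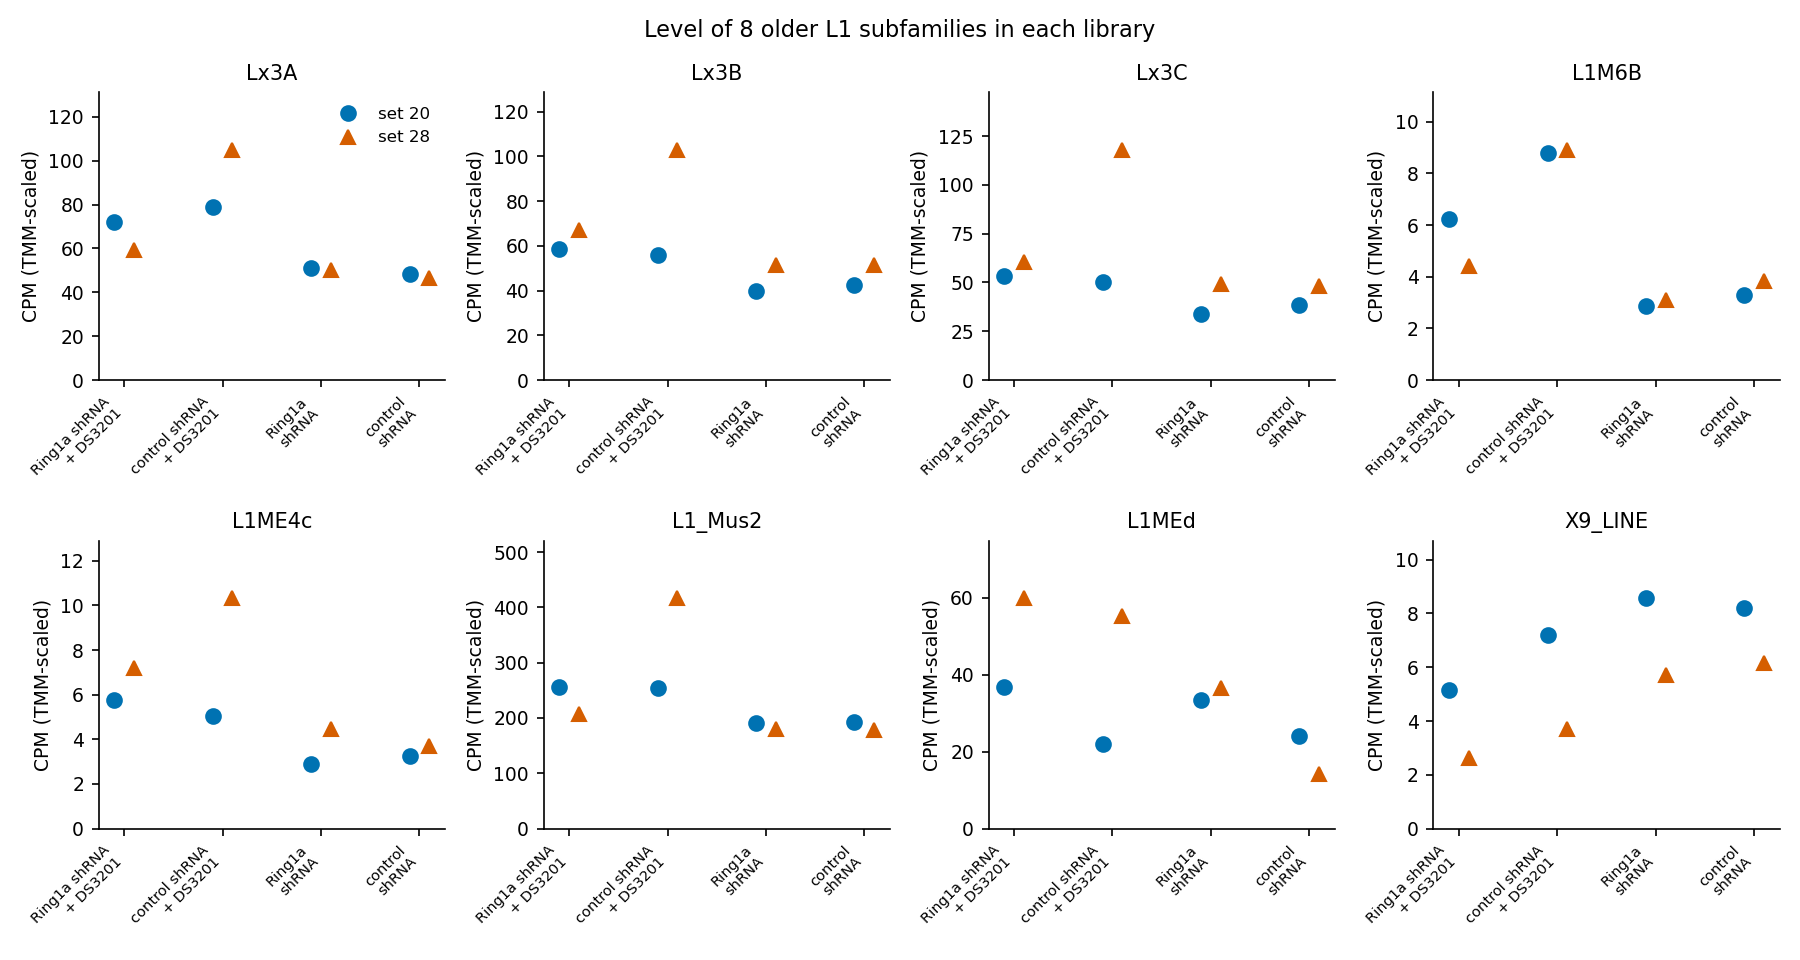
TMM-scaled CPM (vertical axes, from 0) of 8 older L1 subfamilies in the 4 groups, 1 point per library, circles for set 20 and triangles for set 28. The DS3201 libraries of Lx3A, Lx3B, Lx3C, L1M6B, L1ME4c and L1_Mus2 lie above all libraries without it, L1MEd is lowest in the control library of set 28, and X9_LINE is lower with DS3201 within each set.

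In the fit with the block that left out the outlying inhibitor library, pooled DS3201 called 11 of 121 older L1 subfamilies (9.09%) higher and 1 (0.826%) lower, beside 14.2% higher and 11.8% lower of all entries. The median log2 fold change was then 0.14, against -0.01 over all entries, and 89 of 121 (73.6%) were positive, against 48.9%. The inhibitor group had 1 library in that fit. All 5 named above were called in both fits, at 1.01 ± 0.23 for L1M6B, 0.75 ± 0.20 for L1ME4c, 0.49 ± 0.076 for Lx3A, 0.40 ± 0.071 for Lx3B and 0.41 ± 0.088 for Lx3C (SE). Lx4A, Lx8b, Lx2, Lx10, L1_Mur2 and L1_Mus2 joined them, at log2 fold changes between 0.26 and 0.34, and L1_Mm, at -0.26 ± 0.074 (edgeR with the block, adjusted p = 0.0490), was lower. These names come from a fit singled out after the data were seen. Leaving out the inhibitor library of set 20 in its place, 86 of 121 were called higher and 1 lower with the block, beside 22.8% higher and 19.1% lower of all entries, and 32 higher without a block, beside 4.88%.

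L1_Mus2, a mouse L1 outside L1Md, had 256 and 208 CPM in the combined group and 254 and 417 CPM in the inhibitor group, against 192 and 179 CPM in the knockdown group and 192 and 178 CPM in the control group. The 4 libraries without DS3201 lay within 178 to 192 CPM, below all 4 with it. L1_Mm had 134 and 107 CPM in the combined group and 127 and 245 CPM in the inhibitor group, against 152 and 107 CPM in the knockdown group and 168 and 114 CPM in the control group, so that its direction in set 20 was the opposite of that in the inhibitor library of set 28.

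All 4 DS3201 libraries were above all 4 others in 32 of 120 older L1 subfamilies (26.7%), where 12.3% of all entries were so, and below in 0 of 120, where 5.28% were. Leaving out the outlying inhibitor library, the count was again 32 (26.7%), where 15.4% of all entries were so. Within sets, 62 of 120 (51.7%) were higher with DS3201 in all 4 pairs, where 25.2% of all entries were, and 63 (52.5%) in the 3 pairs without that library, where 32.3% of all entries were. A single member, X9_LINE, was lower in all 4 pairs, where 18.9% of all entries were.

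X9_LINE, which the table places in the L1 family, had 5.15 and 2.62 CPM in the combined group and 7.19 and 3.71 CPM in the inhibitor group in sets 20 and 28, against 8.57 and 5.72 CPM in the knockdown group and 8.22 and 6.17 CPM in the control group. It was 1 of the 3 members lower in the outlying inhibitor library than in the control library of its set.

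By name class, most Lx subfamilies were higher with DS3201 in every pair. Of the 21 Lx subfamilies, 17 were higher with DS3201 in all 4 within-set pairs, where 25.2% of all entries were. In 8 of the 21 the DS3201 libraries were all above the others, where 12.3% of all entries were so. The median log2 ratio of the Lx class was 0.29 in set 20 and 0.20 in set 28 with the Ring1a shRNA. With the control shRNA it was 0.24 in set 20 and 1.08 in set 28. In the Lx entry itself, the class's largest by counts, the level was 445 and 385 CPM in the combined group and 514 and 798 CPM in the inhibitor group, against 451 and 379 CPM in the knockdown group and 504 and 410 CPM in the control group. The log2 ratio of Lx with DS3201 was between -0.02 and 0.03 in 3 of the pairs and 0.96 in the pair of the outlying inhibitor library.

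Lx8 and Lx9 were the other Lx subfamilies with the most counts. Lx8 had 310 and 313 CPM in the combined group and 297 and 526 CPM in the inhibitor group, against 265 and 304 CPM in the knockdown group and 263 and 285 CPM in the control group. Lx9 had 253 and 260 CPM in the combined group and 240 and 532 CPM in the inhibitor group, against 213 and 241 CPM in the knockdown group and 228 and 248 CPM in the control group. Both were higher with DS3201 in every within-set pair, by 0.04 to 0.25 on the log2 scale outside the pair of the outlying inhibitor library.

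Lx2A went the other way in set 20. It had 9.23 and 9.33 CPM in the combined group and 8.95 and 17.8 CPM in the inhibitor group, against 17.4 and 8.41 CPM in the knockdown group and 18.4 and 7.72 CPM in the control group. In set 20 it was lower with DS3201 by 0.90 with the Ring1a shRNA and by 1.03 with the control shRNA on the log2 scale, the lowest ratio of any Lx subfamily, whereas in set 28 it was higher. Lx2A was named after its values were seen.

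Among the 11 L1_M and L1VL subfamilies, 5 were higher in all 4 pairs, where 25.2% of all entries were. The median log2 ratio of the 11 was 0.18 in set 20 and 0.24 in set 28 with the Ring1a shRNA. With the control shRNA it was -0.05 in set 20 and 1.23 in set 28. L1_Mus3, which has the most counts of any older L1, had 566 and 498 CPM in the combined group and 590 and 987 CPM in the inhibitor group, against 573 and 435 CPM in the knockdown group and 630 and 431 CPM in the control group. L1_Mus1 had 470 and 432 CPM in the combined group and 437 and 907 CPM in the inhibitor group, against 474 and 448 CPM in the knockdown group and 453 and 415 CPM in the control group. Outside the outlying inhibitor library, neither had DS3201 libraries that were all above the others.

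L1VL4 reached 671 CPM in the inhibitor library of set 28 and 162 CPM in that of set 20, beside 180 and 251 CPM in the combined group, 165 and 208 CPM in the knockdown group and 169 and 211 CPM in the control group in sets 20 and 28. L1_Rod, a rodent L1, had 67.4 and 78.6 CPM in the combined group and 60.3 and 177 CPM in the inhibitor group, against 53.4 and 72.7 CPM in the knockdown group and 56.7 and 66.9 CPM in the control group. L1_Rod was higher with DS3201 in each of the 4 pairs.

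The medians of the mammalian-wide classes differed by comparison. With the Ring1a shRNA, class medians in set 28 were 0.07 for L1MA, -0.03 for L1MB, 0.0052 for L1MC, 0.11 for L1MD, 0.10 for L1ME and 0.06 for the other L1M on the log2 scale, all below the 0.20 of Lx, and in set 20 they were 0.23, 0.20, 0.24, 0.30, 0.25 and 0.19 in that order. No test of the difference between classes was made. With the control shRNA in set 28, class medians were 1.13 for L1MA, 1.01 for L1MB, 1.00 for L1MC, 0.87 for L1MD, 0.92 for L1ME and 0.97 for the other L1M on the log2 scale, and in set 20 they were 0.38, 0.15, 0.24, 0.15, 0.11 and 0.24 in that order. The L1MA entry L1MA6 had 44.4 and 35.8 CPM in the combined group and 39.6 and 71.1 CPM in the inhibitor group, against 35.4 and 36.5 CPM in the knockdown group and 33.1 and 32.0 CPM in the control group. L1MA4 had 41.8 and 37.7 CPM in the combined group and 39.1 and 81.4 CPM in the inhibitor group, against 36.8 and 36.0 CPM in the knockdown group and 35.4 and 35.8 CPM in the control group. All 4 DS3201 libraries of L1MA4 were above the others, while L1MA6 overlapped, and L1MA7 was lower with DS3201 in 3 of the 4 pairs by 0.06 to 0.13.

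For L1MB, L1MB7 had 61.0 and 59.4 CPM in the combined group and 54.1 and 120 CPM in the inhibitor group, against 53.0 and 60.8 CPM in the knockdown group and 48.8 and 58.3 CPM in the control group. L1MB8 and L1MB3 were higher with DS3201 in all 4 pairs, by 0.07 to 0.24 outside the outlying inhibitor library. For L1MC, L1MC had 38.1 and 35.6 CPM in the combined group and 34.4 and 63.9 CPM in the inhibitor group, against 32.3 and 34.3 CPM in the knockdown group and 28.8 and 32.0 CPM in the control group, with no overlap. L1MC4 was higher in all 4 pairs, and L1MC1 was lower by 0.10 in the control shRNA pair of set 20.

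For L1MD, the entry L1MD had 31.3 and 37.6 CPM in the combined group and 25.9 and 54.5 CPM in the inhibitor group, against 28.9 and 36.8 CPM in the knockdown group and 26.9 and 33.3 CPM in the control group. L1MD2 was lower with DS3201 in the Ring1a shRNA pair of set 28 by 0.31, and L1MDa was lower in the control shRNA pair of set 20 by 0.21, and both were higher in their other 3 pairs. For L1ME, L1MEc had 25.9 and 22.3 CPM in the combined group and 23.5 and 44.0 CPM in the inhibitor group, against 18.6 and 19.8 CPM in the knockdown group and 17.6 and 18.8 CPM in the control group, with no overlap, and L1ME1 overlapped. With the Ring1a shRNA the 26 tested L1ME members ran from -0.71 to 0.98 in set 20 and from -0.99 to 1.29 in set 28. Both low ends were L1MEa, with only 59 counts in all 8 libraries, and the 1.29 was L1MEj, with only 83.

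Of the other L1M entries, L1M2 had 109 and 112 CPM in the combined group and 107 and 218 CPM in the inhibitor group, against 92.0 and 104 CPM in the knockdown group and 93.0 and 97.6 CPM in the control group, with no overlap. L1M5 was higher with DS3201 in all 4 pairs, by 0.02 to 0.17 outside the outlying inhibitor library, and L1M4 was lower by 0.08 in the Ring1a shRNA pair of set 28. The HAL1 relatives were few. MusHAL1, the mouse form, had 58.3 and 60.5 CPM in the combined group and 55.8 and 160 CPM in the inhibitor group, against 52.0 and 55.5 CPM in the knockdown group and 55.6 and 54.0 CPM in the control group, with a narrow margin between 55.8 CPM with DS3201 and 55.6 CPM without it.

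The HAL1 entry differed between -0.04 and 0.03 on the log2 scale with DS3201 outside the outlying inhibitor library. It had 21.5 and 22.6 CPM in the combined group and 21.0 and 38.6 CPM in the inhibitor group, against 22.1 and 22.1 CPM in the knockdown group and 20.7 and 21.3 CPM in the control group. The L1P entries, L1P5 and L1PB4, had only 185 and 59 counts in all. L1PB4, at 0.170 to 1.24 CPM, was too near the floor for a direction. L1P5, at 1.14 to 1.94 CPM, was lower with DS3201 in both sets with the Ring1a shRNA and higher in both with the control shRNA.

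**Figure D4:**
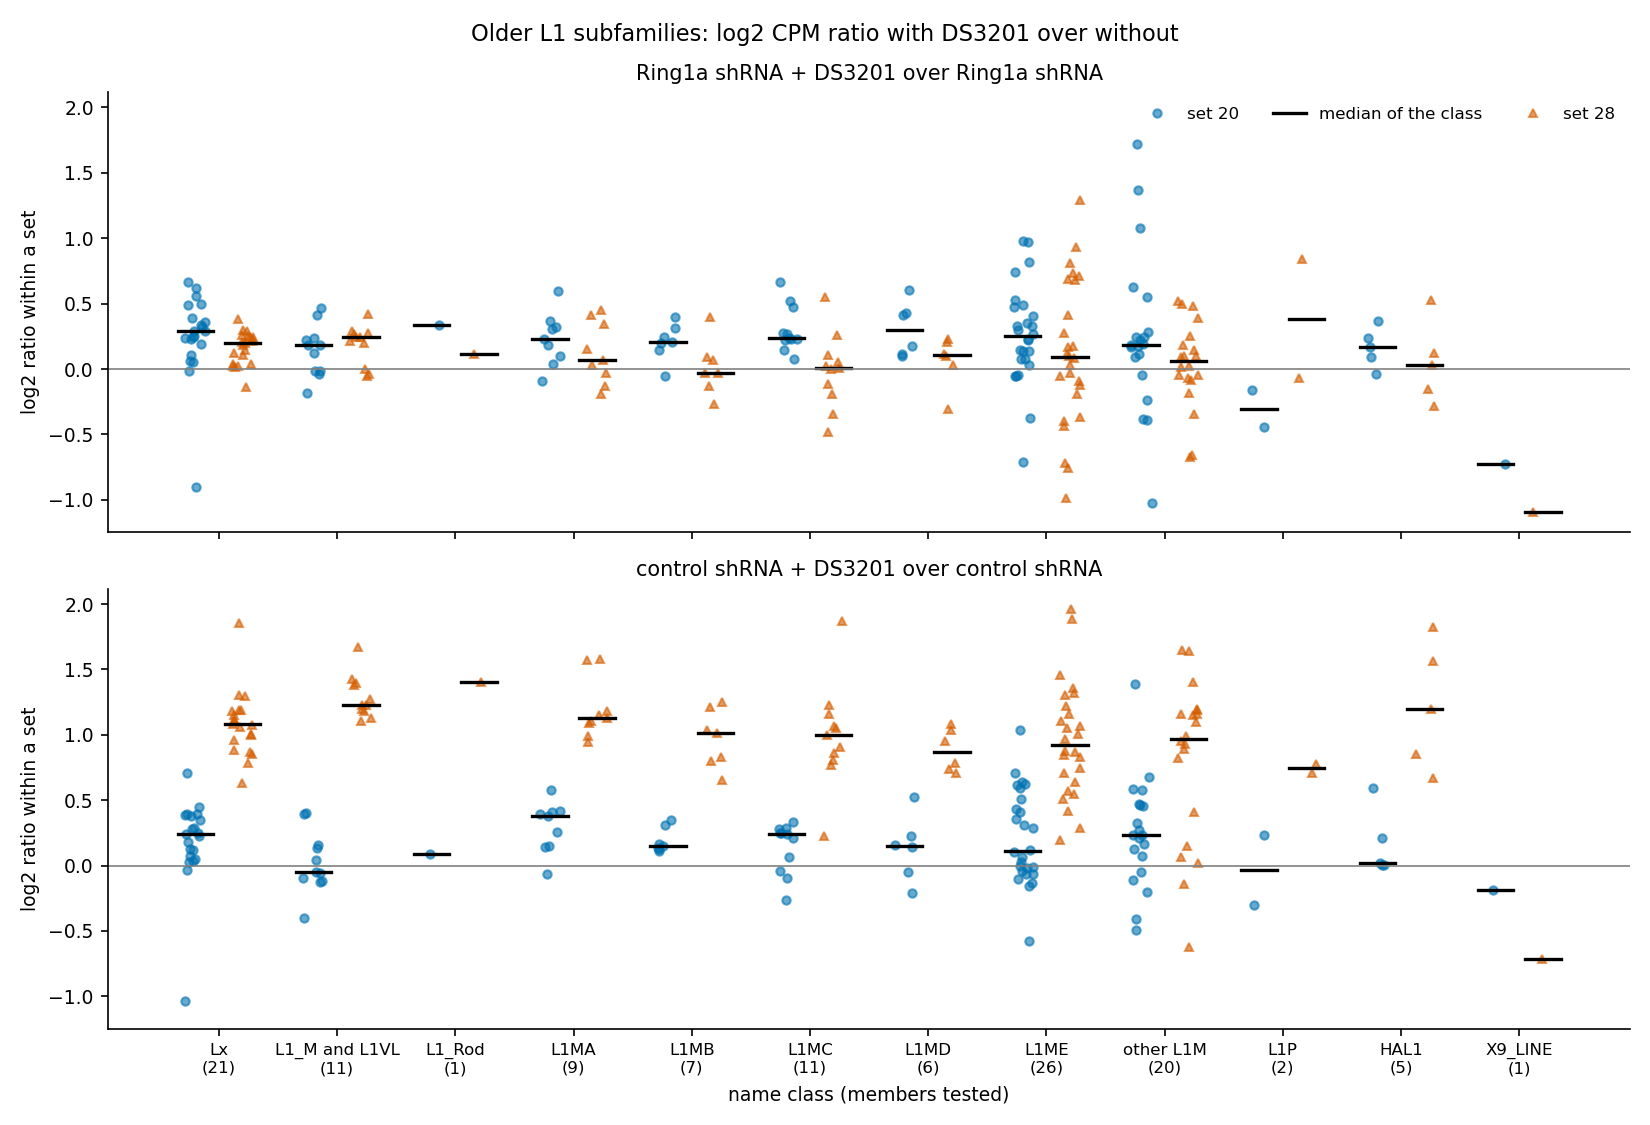
Log2 CPM ratio with over without DS3201 (vertical axis) of each tested older L1 subfamily by name class (horizontal axis, with the number tested), under the Ring1a shRNA (top) and the control shRNA (bottom); circles are set 20, triangles set 28 and bars class medians. Class medians of set 28 under the control shRNA lie near 1, from 0.75 for L1P to 1.40 for L1_Rod, except X9_LINE at -0.72, and elsewhere lie mostly between -0.05 and 0.38.

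The combined treatment was set against the control group as the joint targeting of PRC1 and PRC2. In set 20, 99 of 120 older L1 subfamilies were higher in the combined library, with a median log2 ratio of 0.27. In set 28, 91 of 120 were higher, with a median of 0.18. Past 1.5-fold, 17 were higher and 4 lower in set 20, where 22.5 and 9.67% of all entries were, and 13 were higher and 5 lower in set 28, where 20.6 and 9.03% of all entries were.

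In the fit to all 8 libraries 0 of 120 passed for the combined group against the control group (edgeR). Of all entries, 1.43% were called higher and 0.0327% lower. Unadjusted p was under 0.05 for 1 higher and 0 lower members, against 1596 and 426 of all 15287 entries. DESeq2 called 0 of 120, where it called 918 higher and 126 lower of all entries. The median log2 fold change was 0.22, against 0.02 over all entries, and 0.0094 with the block when the combined library of set 20 was left out. With the block 0 of 120 were called again, beside 9.21% higher and 2.06% lower of all entries. Leaving out the outlying inhibitor library, which is in neither group, 8 of 121 (6.61%) were called higher and 2 (1.65%) lower with the block, beside 13.1 and 10.8% of all entries. When that of set 20 was left out in its place, 10 were called higher and 1 lower, beside 13.4 and 9.89%.

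The 8 were Lx3A, Lx3B, Lx3C, Lx4A, Lx8b, L1ME3A, L1MB2 and L1_Mus2, with log2 fold changes between 0.27 and 0.47, and the 2 were L1M2a and X9_LINE, all named after their values were seen. L1ME3A had the largest of the 8, with 19.9 and 17.8 CPM in the combined group against 13.4 and 13.3 CPM in the control group and a log2 fold change of 0.47 ± 0.13 (SE, edgeR with the block, adjusted p = 0.0436). X9_LINE was lower by 0.96 on the log2 scale (-0.96 ± 0.23, edgeR adjusted p = 0.0325). L1M2a had 3.20 and 1.85 CPM in the combined group against 6.65 and 3.09 CPM in the control group and was at -0.93 ± 0.26 (edgeR adjusted p = 0.0489).

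L1MEd had the smallest p of the combined comparison with all 8 libraries. It had 36.9 and 59.9 CPM in the combined group against 24.0 and 14.1 CPM in the control group, with a log2 fold change of 1.34 ± 0.50 (SE, n = 2 each, edgeR adjusted p = 0.307). Its inhibitor libraries were at 21.9 and 55.4 CPM and its knockdown libraries at 33.5 and 36.5 CPM, so that within set 20 the libraries with the Ring1a shRNA were the higher and within set 28 the control library was the lowest. Lx3A followed, at 0.47 ± 0.21 (adjusted p = 0.423), and L1M3f, at a level near the floor.

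**Figure D5:**
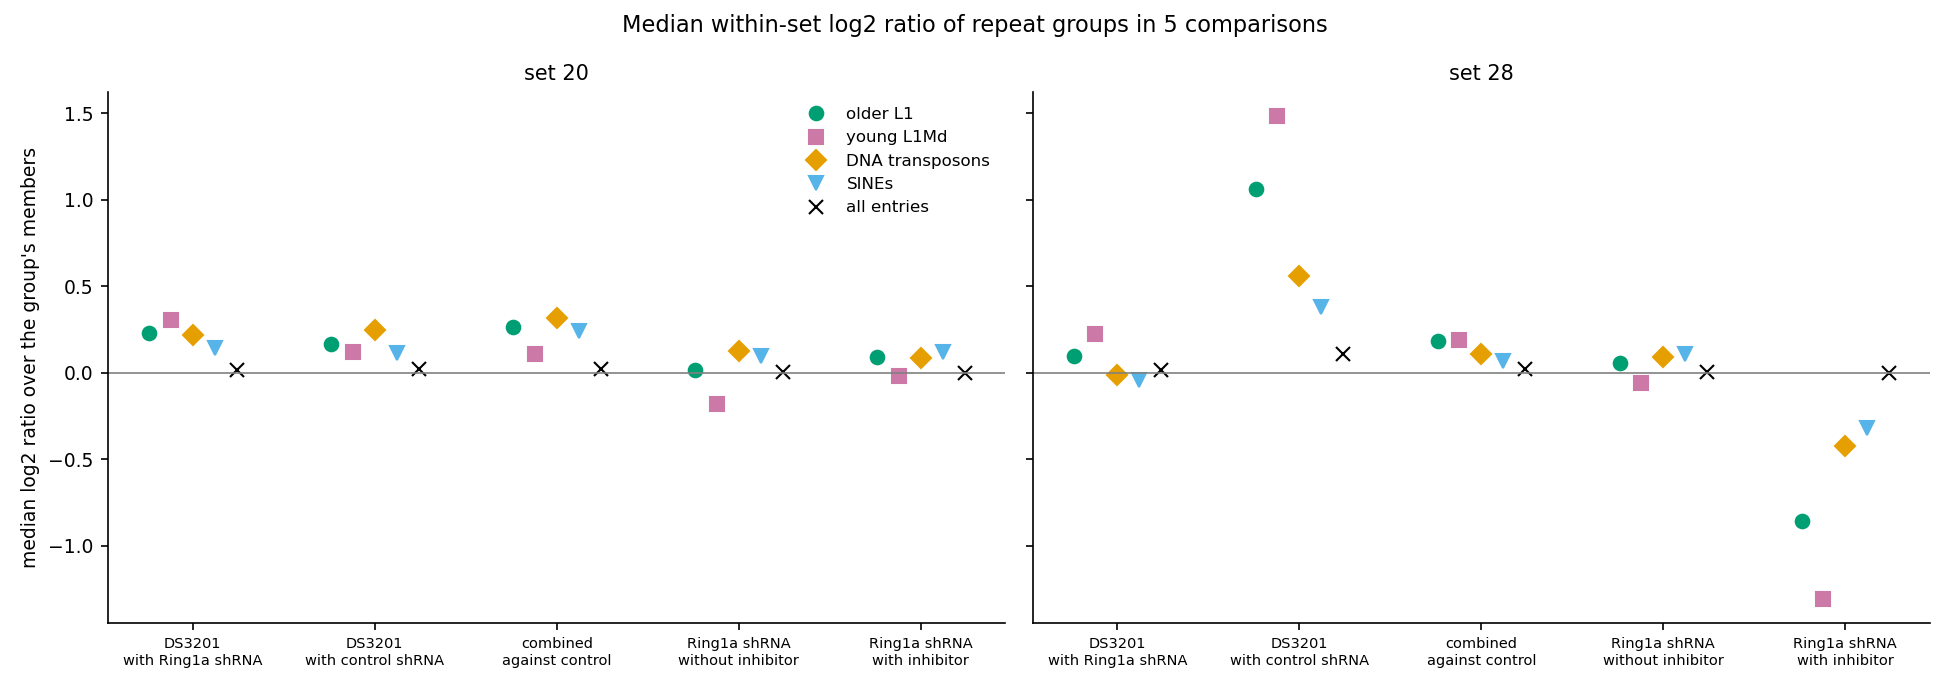
Median within-set log2 ratio (vertical axis) over the tested members of older L1, young L1Md, DNA transposon and SINE subfamilies and over all entries, in 5 comparisons (horizontal axis), for set 20 (left) and set 28 (right). Older L1 lies between 0.01 and 0.27 in set 20, and in set 28 at 1.06 for DS3201 with the control shRNA and at -0.86 for the Ring1a shRNA with inhibitor, the pairs that contain the inhibitor library of set 28.

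With the Ring1a shRNA alone, older L1 RNA was near the level of the control group. In set 20, 64 of 120 were higher in the knockdown library, with a median log2 ratio of 0.01, and in set 28, 85 of 120 were, with a median of 0.06. Past 1.5-fold, 3 were higher and 0 lower in set 20, where 7.68 and 2.75% of all entries were, and 4 were higher and 2 lower in set 28, where 9.03 and 4.08% were. The fit called 0 of 120 (edgeR), as it called 0% of all entries in each direction, with and without the block. DESeq2 also called 0 of 120. Without the block, unadjusted p was under 0.05 for 0 members in each direction, against 103 higher and 52 lower of all 15287 entries. L1MEd had the smallest p, with a log2 fold change of 0.87 ± 0.50 (SE, n = 2 each, edgeR adjusted p = 1), and L1MD2 and L1M6 followed.

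With inhibitor, the Ring1a shRNA comparison again differed between the sets. In set 20, 84 of 120 were higher in the combined library than in the inhibitor library, with a median log2 ratio of 0.09. In set 28, 3 of 120 were higher, with a median of -0.86. Past 1.5-fold, 4 were higher and 4 lower in set 20, where 7.14 and 5.27% of all entries were, and 1 was higher and 103 lower in set 28, where 22.7 and 17.1% were. The fit called 0 of 120 (edgeR), as it called 0% of all entries, with a median log2 fold change of -0.50 against -0.02 over all entries. Unadjusted p was under 0.05 for 1 higher and 1 lower member, against 124 and 148 of all 15287 entries. DESeq2 called 0 of 120. In the fit with the block and without the outlying inhibitor library the median was 0.09 and 0 of 121 were called. When that of set 20 was the one left out, the median was -0.81 and 74 of 121 were called lower, beside 13.7% lower of all entries.

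The subfamilies with the smallest p in that comparison were L1M3f, Lx and L1M7. L1M7 had 2.83 and 3.32 CPM in the combined group against 4.53 and 6.71 CPM in the inhibitor group, with a log2 fold change of -0.87 ± 0.36 (SE, n = 2 each, edgeR adjusted p = 0.9996). It was also below the control group in the knockdown libraries, at 3.74 and 4.24 CPM against 5.23 and 5.03 CPM. Over both inhibitor states, L1M7 was 1 of 11 members (9.17%) lower with the Ring1a shRNA in all 4 within-set pairs, where 13.8% of all entries were, and L1MEd was the 1 (0.833%) higher in all 4, where 13.9% of all entries were.

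Whether the DS3201 difference depended on the shRNA was tested as an interaction. The fit called 0 of 120 (edgeR), as it called 0% of all entries, and DESeq2 called 0 of 120. Unadjusted p was under 0.05 for 0 members in each direction, against 9 higher and 14 lower of all 15287 entries. The median interaction on the log2 scale was -0.54, against -0.07 over all entries, and turned to 0.03 with the block once the outlying inhibitor library was left out. With that of set 20 left out in its place, the median was -0.89 with the block and 58 of 121 were called lower, beside 6.21% lower of all entries.

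Other repeats were also higher with DS3201 and the control shRNA, by their medians. There the median log2 ratio in sets 20 and 28 was 0.17 and 1.06 for older L1, 0.12 and 1.48 for the 6 young L1Md, 0.25 and 0.56 for 143 DNA transposons and 0.11 and 0.38 for 35 SINEs. The young L1Md sums were 4427 and 6184 CPM in the combined group and 4464 and 15231 CPM in the inhibitor group in sets 20 and 28, against 3636 and 5298 CPM in the knockdown group and 4258 and 5593 CPM in the control group. In the outlying inhibitor library young L1Md were further above the control library of their set than older L1 were, by their medians. Over all 894 tested repeats, older L1 included, the medians with the control shRNA were 0.25 in set 20 and 0.75 in set 28. With the Ring1a shRNA they were 0.24 in set 20 and 0.12 in set 28, against 0.23 and 0.10 for older L1. The upward shift with the Ring1a shRNA was therefore not particular to older L1. No test of the difference between these groups of repeats was made.

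Of 31 listed genes known to restrain L1, all tested, 1 passed in the fit without a block. It was called higher for combined against control, where 1.43% of all entries were, and for pooled DS3201, where 5.24% were. Setdb1, which is among the 31, is labelled as knocked out in all groups. Dnmt3b, a DNA methyltransferase (chr2, 153649450 to 153687730, plus strand, GRCm38), had 13.7 and 10.5 CPM in the combined group and 11.4 and 7.33 CPM in the inhibitor group, against 5.69 and 4.17 CPM in the knockdown group and 2.66 and 2.01 CPM in the control group. It rose with the combined treatment by a log2 fold change of 2.36 ± 0.39 (SE, n = 2 each, edgeR adjusted p = 0.0480) and with pooled DS3201 by 1.64 ± 0.27 (adjusted p = 0.0221). The other 30, among them the corepressor Trim28, the HUSH gene Mphosph8 and the maintenance methyltransferase Dnmt1, did not pass there in any of the 7 contrasts.

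With the block, pooled DS3201 called 2 of the 31 higher, Dnmt3b and Dnmt3l, and 2 lower, beside 12.9% higher and 4.16% lower of all entries. Without the outlying inhibitor library 3 were called higher and 6 lower, beside 14.2 and 11.8% of all entries, with Trim28 joining the higher and Chaf1b, Pphln1, Hells and Zc3hav1 the lower at log2 fold changes between -0.27 and 0.31. Dnmt3l had 0 or 1 count in each library without DS3201 and 2 to 20 with it. Samhd1, which depletes nucleotides and restricts reverse transcription, had 130 and 144 CPM in the combined group and 158 and 179 CPM in the inhibitor group, against 218 and 209 CPM in the knockdown group and 251 and 224 CPM in the control group, a log2 fold change of -0.57 ± 0.11 (edgeR with the block, adjusted p = 0.0140). Mov10, a helicase that acts on L1 RNA, had 41.8 and 34.7 CPM in the combined group and 59.1 and 20.2 CPM in the inhibitor group, against 79.5 and 94.9 CPM in the knockdown group and 78.6 and 79.7 CPM in the control group, a log2 fold change of -1.15 ± 0.28 (adjusted p = 0.0333). All 4 DS3201 libraries were above all 4 others in Dnmt3b and Dnmt3l, where 12.3% of all entries were so. They were below in Samhd1 and Mov10, where 5.28% were. These 4 genes were picked for their call in the same contrast, so their separation adds no support.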

How the data were processed

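RNA was sequenced in 8 libraries of 4 groups. The authors deposited unnormalized counts, a whole number for every gene symbol and repeat subfamily in each library. The submitters' processing notes name Trim Galore, TopHat2 and the build mm10. Not given in the sources used here are the counting tool, its treatment of reads with several alignments and the repeat annotation, and related subfamilies may share reads. A further 8 columns matched no labelled sample and were not used.

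The test was edgeR 4.0.16 in R 4.3.3 (filterByExpr by group, TMM, robust quasi-likelihood fit to all 8 libraries without a block, two-sided F test, Benjamini-Hochberg over 15287 entries, threshold 0.05). Alternatives were DESeq2 1.42.0 (no block), other scalings and filters, fewer libraries, and the set as replicate block. The labels give each replicate number its own batch but do not tie numbers to sets. The set pairs libraries: differences of set 20 from set 28 correlated between every pair of groups, r = 0.559 to 0.897 over all entries and 0.485 to 0.653 over older L1. Log2 CPM used a prior count of 2. The fits with and without the block were run on simulated counts with planted changes. For the fit without a block these had no set difference, and no library was made to stand apart. The simulation therefore does not check the main fit under the set differences of these data. Floors cover counting error only. Gene positions are from GENCODE vM21. Named members were, by class, the 3 with the most counts, and by contrast the called ones or the 3 with the smallest p. Members and lists were chosen with earlier results of these data known.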

Additional observations from a re-analysis of the deposited data

Results flagged for a closer look

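In 4 of the members chosen by the naming rule the effect of 1 treatment had one sign in both sets under 1 condition and the opposite sign in both sets under the other. Over all 120 tested, 13 did, 5 for DS3201 by shRNA and 10 for the Ring1a shRNA by inhibitor. The share of all entries that meet this rule was not taken, so these counts are no result about older L1. The difference itself was tested as the interaction and did not pass for any of the 4 (edgeR adjusted p = 1 in each case). L1P5, with 185 counts in all, had an interaction of -0.82 on the log2 scale, the same value for DS3201 by shRNA and for Ring1a shRNA by inhibitor. Its DS3201 log2 ratios in sets 20 and 28 were -0.44 and -0.07 with the Ring1a shRNA, against 0.23 and 0.71 with the control shRNA. L1M3f, with 54 counts in all, had an interaction of 1.77, with DS3201 log2 ratios of 1.72 and 0.48 with the Ring1a shRNA, against -0.05 and -0.62 with the control shRNA.

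Lx3A had an interaction of -0.59 for the Ring1a shRNA by inhibitor, with Ring1a shRNA log2 ratios in sets 20 and 28 of -0.13 and -0.83 with inhibitor, against 0.09 and 0.11 without it. HAL1b had -1.19, with ratios of -0.09 and -1.62 with inhibitor, against 0.13 and 0.36 without it. Each set 28 value with inhibitor or with DS3201 and the control shRNA contains the library that stands apart, whose part in these values was not tested.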

How the results depend on the processing

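The 2 libraries of the inhibitor group set most of what moved. Without the block and with all libraries, 0 of 120 older L1 subfamilies were called in all 7 contrasts, and no other scaling or filter, nor a fit to the compared libraries alone, changed that. The replicate block gave 2 for DS3201 with the control shRNA and 5 for pooled DS3201, DESeq2 2 and 2; the block changed no other call. Over fits that each left out 1 library, with and without the block, counts ran from 0 to 4 for DS3201 with the Ring1a shRNA, 0 to 88 with the control shRNA, 0 to 11 for combined against control, 0 to 74 for the Ring1a shRNA with inhibitor, 0 to 87 for pooled DS3201 and 0 to 58 for the interaction, each highest without the inhibitor library of set 20 (the 4 also without that of set 28), and 0 for the Ring1a shRNA without inhibitor. Medians (log2) ran, in the same order, from -0.036 to 0.36, 0.077 to 1.13, 0.0094 to 0.41, -0.88 to 0.12, 0.092 to 0.65 and -0.94 to 0.11, and from -0.083 to 0.17 for the Ring1a shRNA without inhibitor, where library sizes alone gave 0.071. The sign turned without the inhibitor library of set 28 for the Ring1a shRNA with inhibitor and for the interaction, without the combined library of set 20 for DS3201 with the Ring1a shRNA, and for the Ring1a shRNA without inhibitor in 4 fits, 1 without each of its libraries. The cause was not tested. No member that the naming rule chose for its call or small p changed sign in these fits in the comparison that named it. Members named otherwise include those named for a call in a fit that left out a library, L1_Mm among them. Of all members named otherwise, L1_Mm and L1_Mus1 were at 0.17 and 0.28 for pooled DS3201 with the block. Without the inhibitor library of set 28 they turned to -0.26 and -0.07. The rest were not followed fit by fit. L1M3f and L1PB4, with 54 and 59 counts in all, are too low for a difference to be detectable at this depth.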
